A study of Mus musculus with 6 samples.

Results

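The chemokines and chemokine receptors of mouse were taken from the deposited expression table by gene symbol, as the genes whose symbol is Ccl, Cxcl, Cx3cl, Xcl, Ccr, Cxcr, Cx3cr, Xcr or Ackr followed by a number and, at most, 1 letter. Of the 45038 genes in the table, 60 had such a symbol and 59 are covered here, 38 of them ligands and 21 receptors. Of these, 48 (29 ligands and 19 receptors) reached 1 FPKM (fragments mapped to a gene, per unit of transcript length and of library size) in at least 1 of the 6 libraries and are described here. The remaining 11 stayed under 1 FPKM in each library, and were Ccl19, Ccl20, Ccl21b, Ccl26, Ccl27b, Ccl28, Cxcl11, Cxcl15, Cxcl17, Ccr8 and Ackr1. Just inside the limit, Ccr3 reached 1.34 FPKM and Ccl1 1.85 FPKM in their highest library, and just outside it Ccl19 reached 0.622 FPKM and Cxcl11 0.376 FPKM.

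Chemokines are small secreted proteins that bind to glycosaminoglycans on the endothelial surface and guide leukocytes along a gradient into tissue. Their receptors are membrane proteins with an extracellular ligand site that signal through inhibitory G proteins, while the atypical receptors (Ackr genes) bind chemokines without G protein signalling and remove them. In the infarcted heart, CXC ligands of Cxcr2 are known for drawing in neutrophils and CC ligands of Ccr2 for drawing in monocytes, and Cxcl12 is made by stromal and endothelial cells.

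The study set MI tissue against normal left ventricle in cells sorted for a lineage reporter. All mice were C57BL/6, aged 6 to 8 weeks in the protocol text, and carried Tie2-Cre;Rosa-LSL-tdTomato, a Cre recombinase under the Tie2 promoter with a red reporter that Cre switches on. Tie2 drives Cre in endothelium and also in some blood lineage cells, so reporter-positive leukocytes are collected too. In the MI group (3 libraries), the left anterior descending coronary artery had been ligated and the infarct was dissected 3 weeks later, and the Normal group (3 libraries) is labelled as having had no such surgery. In both groups tdTomato+ F4/80- cells were sorted, which removes cells bearing the macrophage antigen F4/80. The libraries of each group are called Ms1535, Ms1537 and Ms1608 in the labels, and values below are always given in that order. No label says that same-numbered libraries share a mouse, or that the libraries of a group are separate mice. The p-values therefore set each difference against a spread between the libraries of a group that may be only technical.

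Sequencing depth, read from the steps between low FPKM values, was 33.9 M to 49.3 M fragments per library (M for mega), so that 3 fragments on a transcript of 2 kb correspond to 0.0304 to 0.0443 FPKM. Normal Ms1608 stood apart from the other libraries. Its correlation with each of them over the tested genes was 0.54 to 0.68, against 0.80 to 0.92 among the other 5. The 12 pan-leukocyte markers summed to 2263, 2395 and 2071 FPKM in the MI libraries and to 284, 405 and 3882 FPKM in the Normal libraries, and Ptprc, the leukocyte antigen CD45, measured 68.7, 77.9 and 75.9 FPKM and 3.13, 4.72 and 174 FPKM in the same order. The 15 pan-endothelial markers summed to 468, 1170.0 and 292 FPKM and to 1350.5, 950.2 and 38.8 FPKM, and Normal Ms1608 held only 0.486 FPKM of Kdr and 1.20 FPKM of Cdh5, both defining endothelial genes. Pecam1, of the same list, was instead at its highest in Normal Ms1608, at 28.3 FPKM, and made up most of the sum there. The other genes of the list were all lowest in that library. The F4/80 gene Adgre1 ranged from 0.00904 FPKM in Normal Ms1608 to 7.21 FPKM in MI Ms1608 over the 6 libraries. The sums for neutrophil markers were 4599, 9925 and 12076 FPKM for the MI group and 2488, 2093 and 13539.5 FPKM for the Normal group. Most of the neutrophil sum of Normal Ms1608 came from S100a8 and S100a9, at 6890 and 6169 FPKM. The median of the neutrophil markers was 17.6, 81.2 and 17.9 FPKM in the MI libraries and 3.29, 2.30 and 6.87 FPKM in the Normal libraries. The sums for fibroblast markers were 5897, 5423 and 970.5 FPKM and 704, 924 and 191 FPKM. Pan-leukocyte markers were therefore high in the MI libraries and in Normal Ms1608 and low in the other Normal libraries, as many chemokine genes were. Markers of single leukocyte types did not all follow this order. The macrophage and monocyte markers summed highest in Normal Ms1608, at 3271 FPKM, but Adgre1, Fcgr1 and C1qc of that list were lowest there. The part of the leukocyte markers in the chemokine differences was not tested. In such bulk samples, more cells of a type and more RNA per cell cannot be told apart.

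Of the 31 members high enough to be tested, 7 of 11 receptors and 8 of 20 ligands were higher in all MI libraries than in Normal Ms1535 and Ms1537, beside 52.6% of all tested genes, and Normal Ms1608 was above at least 1 MI library for 13 of these 15. The FPKM of all 38 ligands summed to 1140.1, 1317 and 1254 in the MI libraries and to 228, 352 and 3136 in the Normal libraries. The 21 receptors summed to 492, 188 and 271 FPKM in the MI libraries and to 36.9, 53.6 and 527 FPKM in the Normal ones. For both classes Normal Ms1608 held the highest sum and the other Normal libraries the lowest. The number of members at 1 FPKM or more did not follow the sums, being 40, 35 and 33 in MI and 24, 26 and 22 in Normal, with Normal Ms1608 the lowest of all. Over all genes of the table the same counts were 11450, 11294 and 10317 in MI and 8930, 8474 and 6882 in Normal, again with Normal Ms1608 the lowest. A core of 11 members (7 ligands and 4 receptors) reached 1 FPKM in every library, and 6 did so in exactly 1.

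**Figure D1:**
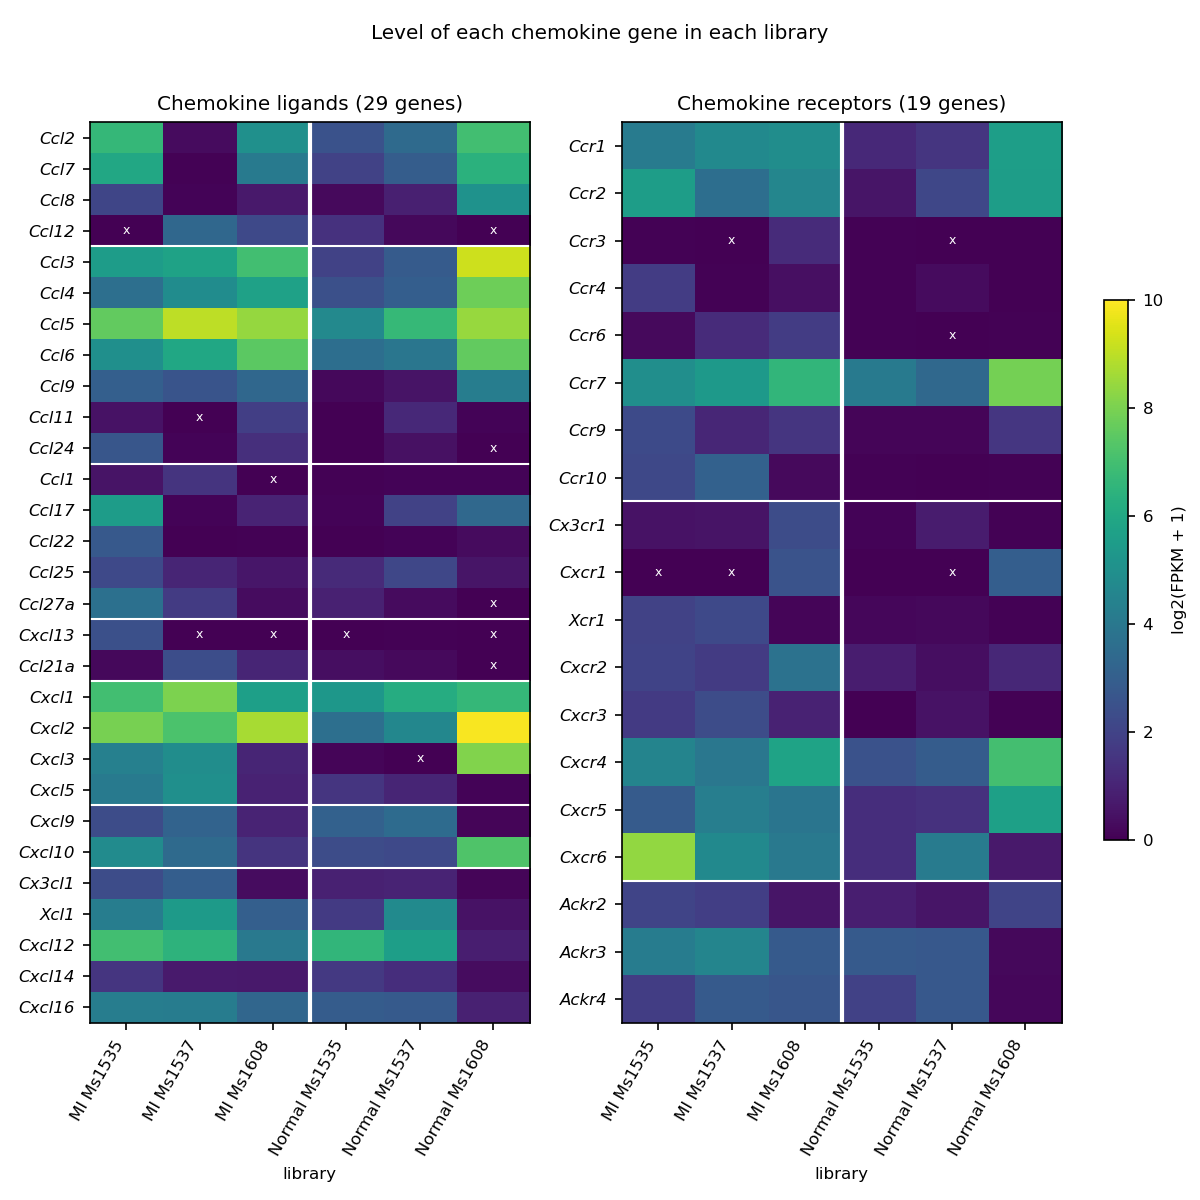
Level of each of the 48 described chemokine genes (rows, ligands left and receptors right, in the order of their roles) in each library (columns), as log2(FPKM + 1), with x where a gene is listed at 0. Normal Ms1608 has a few very bright ligands and receptors next to many dark rows, and the other Normal libraries are darker than the MI libraries for most receptors.

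The composition of the ligand pool also differed between libraries. Cxcl2, a ligand of Cxcr2, was the most abundant ligand per length in MI Ms1535 (21.7% of the summed ligand FPKM), MI Ms1608 (32.6%) and Normal Ms1608 (30.9%). Ccl5, a product of T and NK cells, led in MI Ms1537 (39.2%) and Normal Ms1537 (29.2%), and Cxcl12 led in Normal Ms1535 (42.1%). Among receptors, Cxcr6 led in MI Ms1535 (66.8% of the summed receptor FPKM) and Normal Ms1537 (31.5%), and Ccr7 in MI Ms1537 (21.3%), MI Ms1608 (34.6%), Normal Ms1535 (44.4%) and Normal Ms1608 (45.3%). No ligand or receptor thus led in all libraries of either group.

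**Figure D2:**
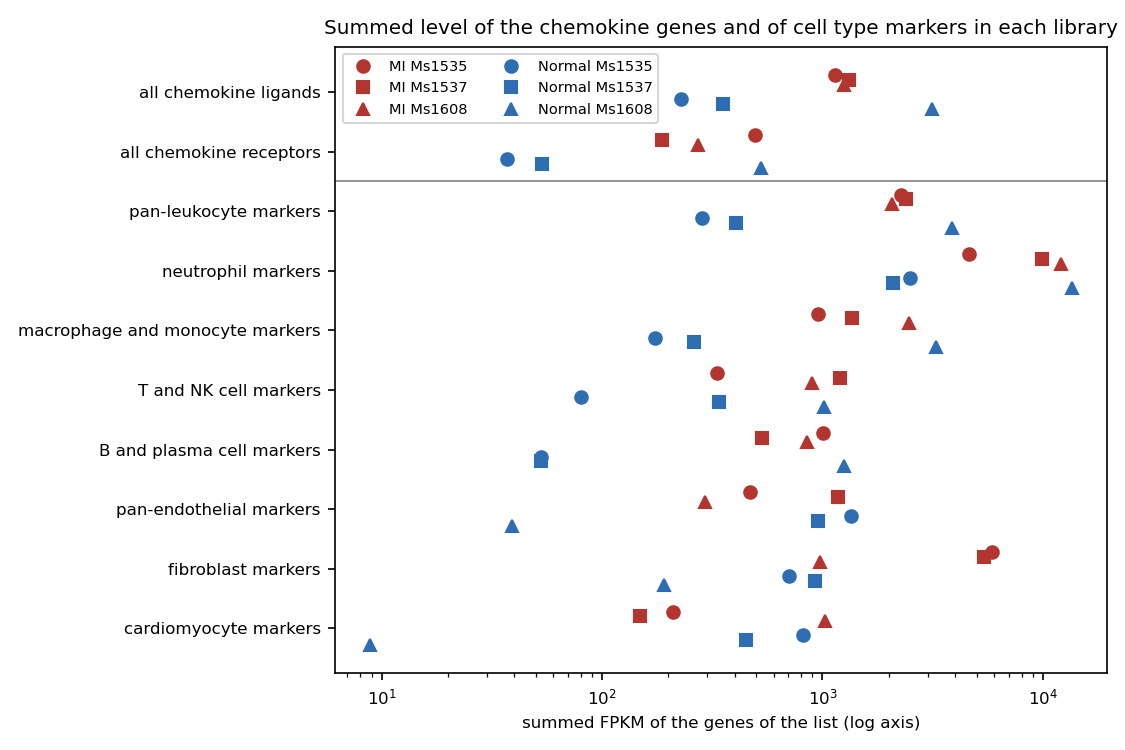
Summed FPKM (log axis) of all chemokine ligands, all chemokine receptors and the genes of 8 marker lists in each library, with MI libraries in red, Normal libraries in blue and the number in the library's name given by the symbol. The blue triangle, Normal Ms1608, lies to the right of all other libraries for ligands (3136) and receptors (527) and to the left of them for pan-endothelial markers (38.8).

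Differences were tested with limma on log2(FPKM + 1) in the 10168 genes that reached 1 FPKM in at least 3 libraries, and each log2 difference below is the MI mean minus the Normal mean of these values, which understates the change of low genes. Of the described members, 31 (20 ligands and 11 receptors) were tested and 17 were too low. With all 6 libraries, no tested member had entered through 1 group alone, since 0 of them were under 1 FPKM in all MI or all Normal libraries. None of the 31 passed the threshold of 0.05 on the adjusted p, against 0.00983% of all tested genes called higher in MI (1 gene, Gm24890). At an unadjusted p under 0.05, 1 ligand (Cxcl5) and 2 receptors (Cxcr2 and Cxcr6) were higher in MI and no member was lower, while the share over all tested genes was 16.1%. The median log2 difference was 0.96 for the ligands, of which 14 of 20 were above 0, and 1.01 for the receptors, of which 11 of 11 were above 0. The ligand median was 0.37 without Normal Ms1535 and 0.55 without Normal Ms1537, and the receptor median 1.92 without Normal Ms1608. Over all tested genes the median was 0.78 and 8870 of 10168 were above 0, so that most genes of these libraries had a higher FPKM in MI. When the libraries were rescaled by median ratios, the median over all genes moved to -0.03, that of the ligands to 0.003 and that of the receptors to 0.50, with 7 of 11 receptors and 10 of 20 ligands above 0. With upper-quartile and quantile scaling, 8 and 9 of the 11 receptors and 13 and 12 of the 20 ligands were above 0.

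Without Normal Ms1608, 3 of 20 ligands (Ccl3, Ccl9 and Cxcl2) and 2 of 11 receptors (Ccr1 and Ccr2) were higher in MI at an adjusted p under 0.05 in limma, where 4.45% of all tested genes were. The filter was still that of all 6 libraries. Ccl9, and Cxcl3, Ccr9, Cxcr2 and Ackr2 among the members not called, were under 1 FPKM in both remaining Normal libraries. In this comparison they thus reached 1 FPKM in MI libraries alone. At an unadjusted p under 0.05 the counts were 7 ligands and 8 receptors, beside 30.8% of all genes. In the same comparison 11 of 12 pan-leukocyte markers and 5 of 8 B and plasma cell markers were called higher in MI. The counts were 5 of 11 for T and NK cell markers, 3 of 10 for neutrophil markers and 2 of 11 for macrophage and monocyte markers. They were 1 of 4 for mast cell, basophil and eosinophil markers and 0 of 6 for dendritic cell markers. No pan-endothelial (0 of 15) or fibroblast marker (0 of 10) was called higher. At an unadjusted p under 0.05 in limma, however, 7 of 10 fibroblast markers and 0 of 15 pan-endothelial markers were higher in MI. The median log2 difference was 1.93 for the fibroblast and -0.83 for the pan-endothelial markers, against 0.83 over all tested genes. With these 5 libraries also rescaled by median ratios, upper quartiles or quantiles, which was chosen after seeing the data, no member was called and the lowest adjusted p of a member was 0.109 to 0.134. The log2 differences of the 5 called members were then smaller but still above 0, at 2.67 to 2.72 for Ccl3, 1.88 to 2.08 for Ccl9, 2.74 to 2.97 for Cxcl2, 2.34 to 2.42 for Ccr1 and 2.36 to 2.44 for Ccr2. The median over all tested genes was 0.83 before these rescalings and -0.04 to 0.003 after them. For the other 26 tested members the adjusted p ranged from 0.00824 to 1.00 over the alternative settings that tested them. Of these, 10 passed the threshold, all higher in MI, where libraries were weighted by their fit, a setting that gave Normal Ms1608 the lowest weight and called 31.6% of all tested genes higher in MI.

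**Figure D3:**
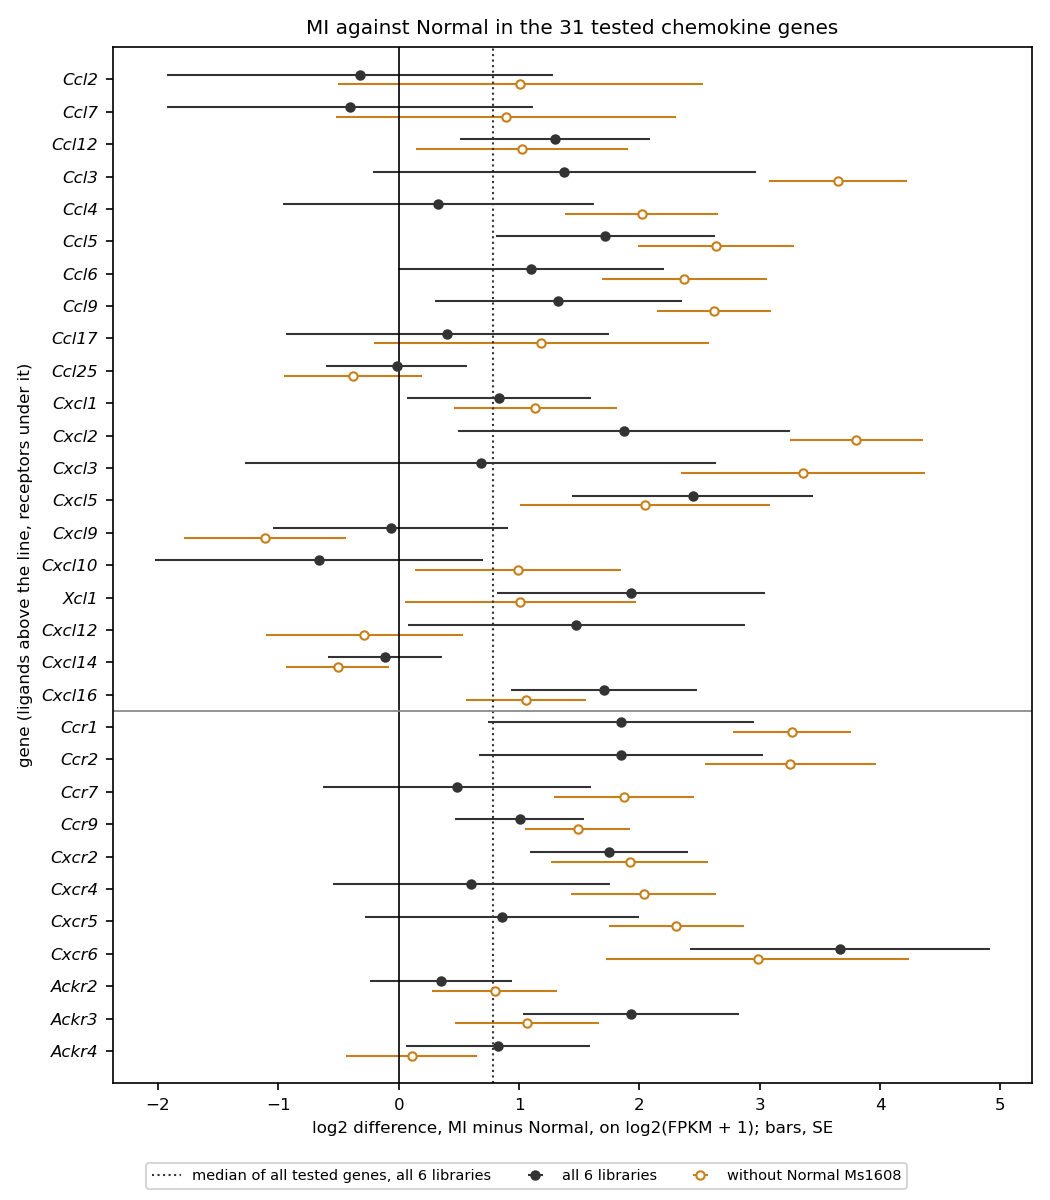
Difference in mean log2(FPKM + 1) between MI and Normal for the 31 tested chemokine genes (ligands above the line, receptors under it) with all 6 libraries (filled) and without Normal Ms1608 (open), bars showing the standard error. With all 6 libraries the bars are long and no gene passed the threshold, and the open symbols of Ccl3, Cxcl2, Cxcl3, Ccr1 and Ccr2 lie above 3 with shorter bars.

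The neutrophil-attracting CXC ligands are clustered on chromosome 5 (GRCm38 chr5:90759360-90905938, with Cxcl5, Cxcl3, Cxcl15, Cxcl1 and Cxcl2) and act on Cxcr2. Promoter sequence from RefSeq (GRCm38.p6) is shown for the 3 of them whose upstream bases hold the same 9-base match to a kappaB-like motif, searched as GGANNTTCC on both strands in the 250 bases before each gene's start. The match is in capitals. Each printed stretch stops at the earlier of the RefSeq and the GENCODE vM21 start of the gene, and the match begins 66 bases before the end of the stretch in Cxcl1 (chr5:90891121-90891240, plus strand), 68 in Cxcl2 (chr5:90903751-90903870, plus strand) and 72 in Cxcl3 (chr5:90785981-90786100, plus strand). From the RefSeq start, which bounded the search, the distances are 70, 96 and 72 bases.
Cxcl1: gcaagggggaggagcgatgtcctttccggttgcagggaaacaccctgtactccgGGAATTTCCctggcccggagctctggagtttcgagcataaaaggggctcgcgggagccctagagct
Cxcl2: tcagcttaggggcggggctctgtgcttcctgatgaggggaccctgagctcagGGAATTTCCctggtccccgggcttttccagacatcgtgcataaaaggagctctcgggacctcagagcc
Cxcl3: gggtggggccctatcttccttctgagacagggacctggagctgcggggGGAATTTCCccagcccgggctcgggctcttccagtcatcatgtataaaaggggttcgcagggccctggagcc
The 3 matches read the same letters, GGAATTTCC. The motif was found in 3.59% of 32851 promoters and in 7 of the 45 member genes that have an entry in the promoter table (Ccl1, Ccl12, Ccr3, Cxcl1, Cxcl2, Cxcl3 and Cxcl10). A match describes the letters and does not show that a factor binds there.

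Cxcl2 and Cxcl3 were both highest in Normal Ms1608. Cxcl2 measured 247, 144 and 409 FPKM in the MI libraries and 11.4, 23.9 and 969 FPKM in the Normal libraries. All MI libraries lay above Normal Ms1535 and Ms1537 and below Normal Ms1608, so the groups overlapped. The log2 difference was 1.87 (SE 1.38, 95% interval -1.20 to 4.95, adjusted p = 0.487) with all 6 libraries and 3.80 (SE 0.55, adjusted p = 0.0210) without Normal Ms1608, and its adjusted p over the 16 alternative settings ran from 0.00429 to 0.936. Cxcl3 measured 19.4, 28.9 and 1.07 FPKM in the MI libraries and 0.110, 0 and 274 FPKM in the Normal libraries, a spread within MI of 28.9 to 1.07 FPKM and the steepest contrast between Normal Ms1608 and the other Normal libraries. Its log2 difference was 0.68 (SE 1.96, adjusted p = 0.880), and 3.36 without Normal Ms1608 (SE 1.01, adjusted p = 0.0810).

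Cxcl1 and Cxcl5, which lie in the same cluster, had other profiles. Cxcl1 measured 126, 259 and 49.0 FPKM in the MI libraries and 38.2, 72.9 and 100.2 FPKM in the Normal libraries, and was among the more even ligands, with MI Ms1608 below Normal Ms1537 and Normal Ms1608. Its log2 difference was 0.83 (SE 0.76, adjusted p = 0.580). Cxcl5 measured 16.2, 30.3 and 0.934 FPKM in the MI libraries and 1.91, 1.06 and 0.0724 FPKM in the Normal libraries, so that MI Ms1535 and MI Ms1537 stood above every other library and MI Ms1608 was in the range of the Normal group. Cxcl5 was the ligand with the lowest p, at a log2 difference of 2.45 (SE 1.00, 95% interval 0.22 to 4.67, limma unadjusted p = 0.0347, adjusted p = 0.282). In Normal Ms1608, Cxcl2 and Cxcl3 were therefore at their highest while Cxcl5 was at its lowest. Their receptor Cxcr2, described below with the receptors, is itself one of the 10 neutrophil markers.

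The tested CC ligands of Ccr1 and Ccr3 shared 1 ordering, with Normal Ms1535 lowest, Normal Ms1537 next and the MI libraries above them. Ccl3, Ccl4, Ccl5, Ccl6 and Ccl9 lie together at chr11:83525778-83664683 (GRCm38). Ccl3 and Ccl4, the macrophage inflammatory proteins, were highest in Normal Ms1608. Ccl3 measured 45.2, 52.7 and 124 FPKM in the MI libraries and 2.96, 6.35 and 606 FPKM in the Normal libraries. Ccl4 measured 11.5, 28.1 and 51.3 FPKM in the MI libraries and 4.45, 6.98 and 219.7 FPKM in the Normal libraries. Both had MI libraries between the lower Normal libraries and Normal Ms1608, and the groups overlapped. The log2 difference of Ccl3 was 1.38 (SE 1.59, adjusted p = 0.670) with all libraries and 3.65 (SE 0.57, adjusted p = 0.0219) without Normal Ms1608, within a range of adjusted p over the alternatives of 0.00648 to 0.998. For Ccl4 it was 0.33 (SE 1.29, adjusted p = 0.912), and 2.02 (adjusted p = 0.0887) without that library.

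Ccl5, a ligand of Ccr1, was among the 3 most abundant ligands per length in each library. It measured 195, 516 and 338 FPKM in the MI libraries and 25.3, 103 and 353 FPKM in the Normal libraries. Normal Ms1608 lay within the MI range here rather than above it. The log2 difference was 1.72 (SE 0.91, 95% interval -0.31 to 3.75, adjusted p = 0.354), and 2.64 (adjusted p = 0.0558) without Normal Ms1608. Ccl6 and Ccl9, ligands of Ccr1 found in rodents, were like Ccl3 highest in Normal Ms1608. Ccl6 measured 30.8, 60.5 and 178 FPKM in the MI libraries and 11.1, 14.2 and 192 FPKM in the Normal libraries, with a log2 difference of 1.10 (SE 1.10, adjusted p = 0.620). Ccl9 measured 7.08, 5.13 and 9.10 FPKM in the MI libraries and 0.163, 0.435 and 18.0 FPKM in the Normal libraries. Its Normal Ms1535 and Ms1537 values were under 1 FPKM and every other library was above 5 FPKM. The log2 difference of Ccl9 was 1.33 (SE 1.03, adjusted p = 0.507) with all libraries and 2.62 (SE 0.47, adjusted p = 0.0282) without Normal Ms1608, and the adjusted p ran from 0.00563 to 0.939 over the alternatives. The eosinophil attractants Ccl11 and Ccl24 were under the filter, with highest values of 2.67 FPKM in MI Ms1608 and 5.44 FPKM in MI Ms1535.

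The monocyte-attracting CC ligands at chr11:82035571-82305690 (GRCm38), on the same chromosome as the previous cluster, varied more within the MI group than between the groups. Ccl2, the main ligand of Ccr2, measured 99.8, 0.237 and 31.0 FPKM in the MI libraries and 4.69, 9.89 and 126 FPKM in the Normal libraries. Ccl7, another ligand of Ccr2, measured 62.2, 0.0402 and 15.9 FPKM in the MI libraries and 2.98, 6.82 and 81.6 FPKM in the Normal libraries. For both genes MI Ms1537 was the lowest of all 6 libraries and Normal Ms1608 the highest. In implied fragments, Ccl7 had 1.00 in MI Ms1537 against 1844 in MI Ms1535, in libraries of like depth. The log2 difference was -0.32 for Ccl2 (SE 1.60, 95% interval -3.90 to 3.25, adjusted p = 0.931) and -0.40 for Ccl7 (SE 1.52, adjusted p = 0.910), and neither sign was stable, becoming 1.01 and 0.89 without Normal Ms1608 and 1.52 and 1.26 without MI Ms1537. Ccl12, a ligand of Ccr2 in rodents, had another order, at 0, 9.20 and 3.57 FPKM in the MI libraries and 1.71, 0.158 and 0 FPKM in the Normal libraries. It was highest in MI Ms1537 and listed at 0 in MI Ms1535 and Normal Ms1608, the libraries where Ccl2 and Ccl7 were highest. The order was not opposite throughout. In MI Ms1608, Ccl12 was above all Normal libraries, and Ccl2 and Ccl7 were above Normal Ms1535 and Ms1537. Ccl12 was tested as well. Its log2 difference was 1.30 (SE 0.79, adjusted p = 0.406). Ccl8, a CC chemokine of the same cluster, was under the filter and measured 3.29, 0.0779 and 0.598 FPKM in the MI libraries and 0.205, 0.853 and 33.6 FPKM in the Normal libraries, with its highest value in Normal Ms1608. The markers of mast cells, basophils and eosinophils (9 genes) summed to 969, 12.2 and 12.4 FPKM for MI and 3.54, 12.0 and 171 FPKM for Normal, high in MI Ms1535 and Normal Ms1608 as Ccl2 and Ccl7 were, though not in MI Ms1608. The sum is carried by the mast cell proteases Cma1 and Cpa3, at 521 and 332.8 FPKM in MI Ms1535, 88.4 and 73.2 FPKM in Normal Ms1608 and 5.44 and 1.81 FPKM in MI Ms1608. Other genes of the list had other orders, the eosinophil gene Siglecf being highest in MI Ms1608 at 1.54 FPKM. The eosinophil gene Epx was at most 0.0578 FPKM in any library, and Prg2 was listed at 0 in 4 of the 6. Their part in the levels of these ligands was not tested.

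**Figure D4:**
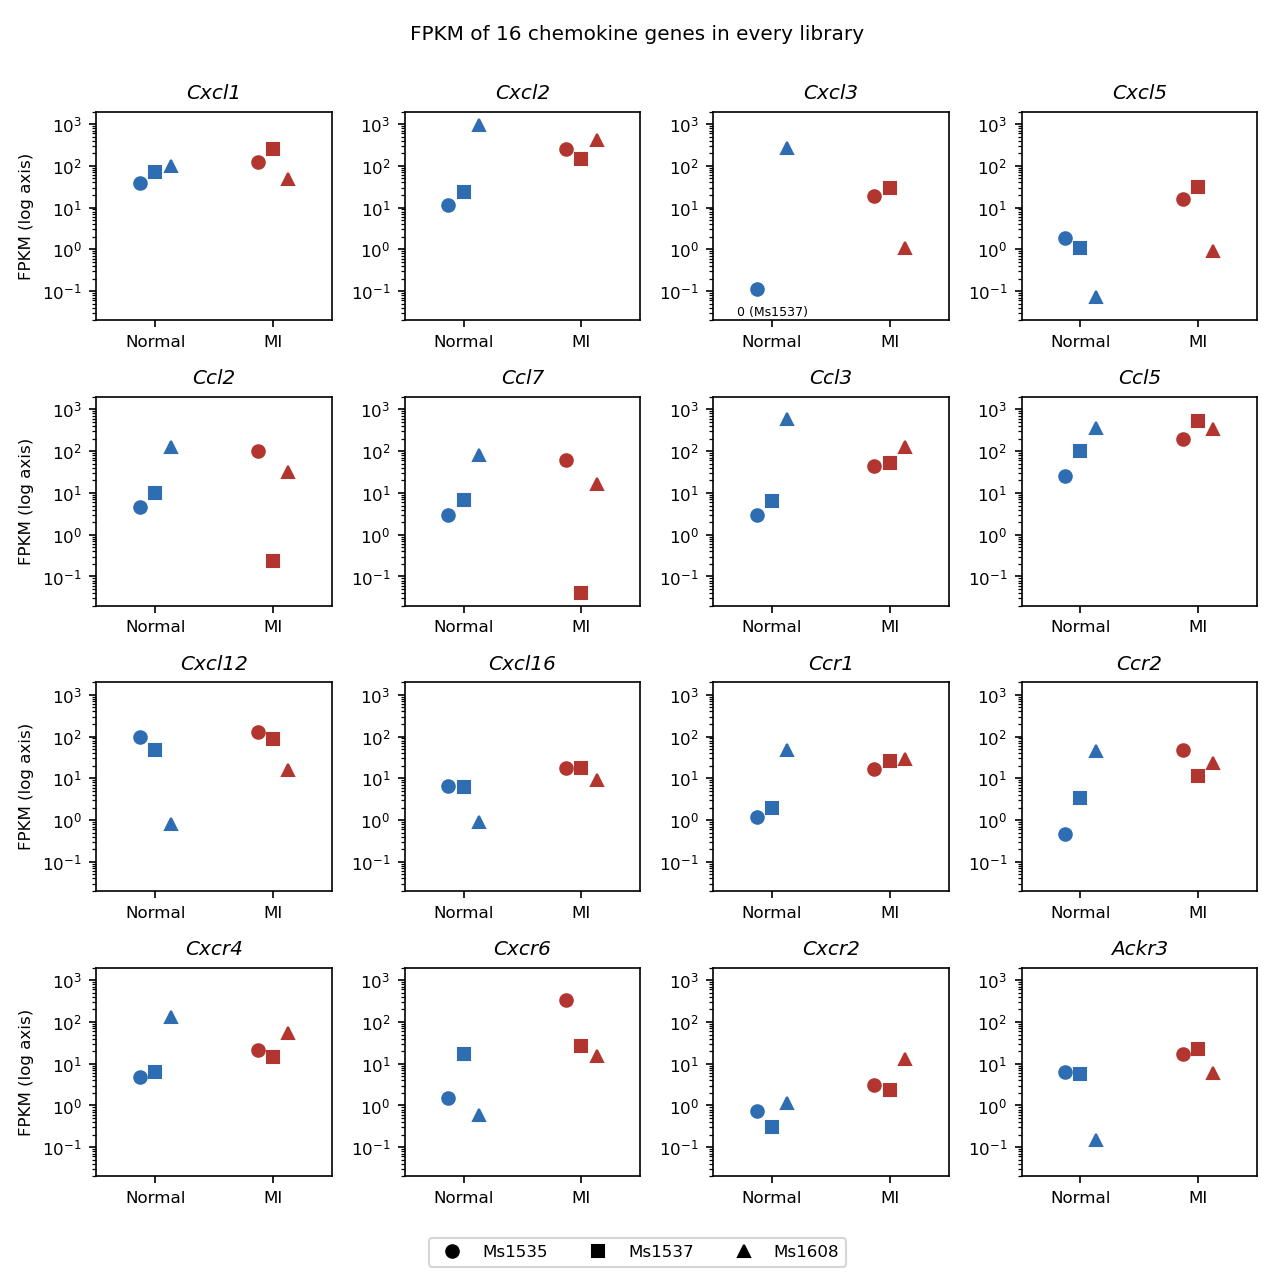
FPKM (log axis) of 16 chemokine genes in each Normal (blue) and MI (red) library, 1 point per library with the number in the library's name given by the symbol, and a gene listed at 0 written as such. Ccl2 and Ccl7 are lowest in MI Ms1537 (0.237 and 0.0402 FPKM), Cxcl2, Ccl3 and Ccr1 are highest in Normal Ms1608, and Cxcl12, Cxcl16 and Ackr3 are lowest there.

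Of the CC ligands of Ccr4, Ccr9 and Ccr10, only Ccl17 and Ccl25 were tested. Ccl17, a ligand of Ccr4 made by dendritic cells, measured 44.8, 0.0774 and 1.02 FPKM in the MI libraries and 0.0679, 2.88 and 9.34 FPKM in the Normal libraries, with 693 implied fragments in MI Ms1535 and 1.01 in MI Ms1537. MI Ms1535 alone was above 10 FPKM, and the log2 difference of 0.41 (SE 1.34, adjusted p = 0.896) became -1.25 without it. Ccl22, the other ligand of Ccr4, reached 5.98 FPKM in the same library and stayed under 1 FPKM in the rest. Ccl25, the ligand of Ccr9, measured 3.58, 1.05 and 0.523 FPKM in the MI libraries and 1.27, 3.41 and 0.484 FPKM in the Normal libraries, and overlapped between groups (log2 difference -0.02, SE 0.59, adjusted p = 0.993). Ccl27a, a ligand of Ccr10, was under the filter and measured 11.8, 2.32 and 0.249 FPKM in the MI libraries and 0.905, 0.228 and 0 FPKM in the Normal libraries. Since mouse Ccl27 and Ccl21 exist in near-identical copies, the split of reads among Ccl27a, Ccl27b, Ccl21a and Ccl21b is uncertain. Ccl1, a ligand of Ccr8, reached 1.85 FPKM in MI Ms1537, its highest library. The lymphoid homing ligands were low, Ccl21a with up to 4.18 FPKM in MI Ms1537 and Cxcl13 with 4.50 FPKM in MI Ms1535, and none of them was tested.

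The interferon-induced ligands Cxcl9 and Cxcl10, which act on Cxcr3, had different profiles. The promoter of Cxcl10 (RefSeq, GRCm38.p6 chr5:92348890-92349139, minus strand, written in the direction of the gene) is shown because it holds both motifs searched. In capitals are an ISRE-like match, from GAAANNGAA searched on both strands, 213 bases before the start and a kappaB-like match 158 bases before it. Other forms of either motif were not searched for and would stand in small letters.
Cxcl10: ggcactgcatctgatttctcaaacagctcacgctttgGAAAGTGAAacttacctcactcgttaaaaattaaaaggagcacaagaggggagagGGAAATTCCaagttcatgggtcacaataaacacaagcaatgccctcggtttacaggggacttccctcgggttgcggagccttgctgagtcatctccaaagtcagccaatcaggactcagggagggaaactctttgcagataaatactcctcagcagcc
The ISRE-like motif was found in 7.13% of all promoters and in 8 of the 45 member genes, including Cxcl9. Cxcl10 measured 27.1, 10.00 and 1.84 FPKM in the MI libraries and 4.01, 3.62 and 150.3 FPKM in the Normal libraries. Normal Ms1608 was the highest library by far and MI Ms1608 the lowest. Cxcl9 measured 4.07, 8.06 and 0.992 FPKM in the MI libraries and 7.49, 10.2 and 0.107 FPKM in the Normal libraries, and was lowest in Normal Ms1608. The log2 difference was -0.67 for Cxcl10 (SE 1.36, adjusted p = 0.827) and -0.07 for Cxcl9 (SE 0.98, adjusted p = 0.980). Without Normal Ms1608 they were 0.99 and -1.11, of opposite sign and neither called.

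The remaining CXC, CX3C and XC ligands, Cxcl12, Cxcl14, Cxcl16, Cx3cl1 and Xcl1, were lowest in Normal Ms1608. Cxcl12, the stromal and endothelial ligand of Cxcr4 and Ackr3, measured 126, 86.8 and 15.4 FPKM in the MI libraries and 96.1, 48.2 and 0.785 FPKM in the Normal libraries. MI Ms1535 was above and MI Ms1608 below both other Normal libraries, and its log2 difference of 1.47 (SE 1.40, 95% interval -1.65 to 4.59, adjusted p = 0.594) became -0.28 without Normal Ms1608. Cxcl16, a transmembrane ligand of Cxcr6, measured 17.9, 17.5 and 8.97 FPKM in the MI libraries and 6.50, 6.08 and 0.893 FPKM in the Normal libraries. All 3 MI libraries were above all 3 Normal libraries, which held for 1 of 20 tested ligands and for 25% of all tested genes. The log2 difference of Cxcl16 was 1.70 (SE 0.77, 95% interval -0.02 to 3.43, adjusted p = 0.305) and 1.06 (SE 0.50, adjusted p = 0.180) without Normal Ms1608. Xcl1, made by T and NK cells and read by Xcr1, measured 17.7, 43.1 and 7.26 FPKM in the MI libraries and 2.24, 26.3 and 0.397 FPKM in the Normal libraries, with Normal Ms1537 inside the MI range (log2 difference 1.93, SE 1.11, adjusted p = 0.388). Cxcl14, a ligand of stromal and epithelial cells, ranged from 0.244 to 2.15 FPKM with a log2 difference of -0.12 (SE 0.47, adjusted p = 0.917). Cx3cl1, the membrane-bound ligand of Cx3cr1, was at 1 FPKM or more in MI Ms1535 and MI Ms1537 alone, at 4.04 and 6.84 FPKM.

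Among the CC receptors, Ccr1 and Ccr2 resembled the ligands Ccl3 and Cxcl2. They lie together with Ccr9, Cxcr6, Xcr1 and Ccr3 at chr9:123678439-124113557 (GRCm38). Ccr1, carried by monocytes and neutrophils, measured 16.8, 25.9 and 29.2 FPKM in the MI libraries and 1.21, 1.91 and 47.4 FPKM in the Normal libraries. Ccr2, needed for monocytes to leave the bone marrow, measured 46.8, 11.3 and 23.0 FPKM in the MI libraries and 0.473, 3.35 and 46.3 FPKM in the Normal libraries. In both genes the MI libraries lay above Normal Ms1535 and Ms1537, and Normal Ms1608 was above all MI libraries for Ccr1 and just under MI Ms1535 for Ccr2. The log2 difference with all 6 libraries was 1.85 (SE 1.10) for Ccr1 and 1.85 (SE 1.18) for Ccr2, at adjusted p = 0.400 and 0.425. Without Normal Ms1608 it was 3.27 (SE 0.49) and 3.26 (SE 0.71), at adjusted p = 0.0210 and 0.0424. Over the alternatives the adjusted p ran from 0.00454 to 0.911 for Ccr1 and 0.00530 to 0.919 for Ccr2.

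Ccr7, which guides dendritic cells and lymphocytes to lymph nodes and is itself 1 of the dendritic cell markers, stayed above 9 FPKM in each library. It measured 29.3, 40.0 and 93.7 FPKM in the MI libraries and 16.4, 9.30 and 239 FPKM in the Normal libraries, and its log2 difference was 0.49 (SE 1.11, adjusted p = 0.847). Ccr9, the receptor of Ccl25, measured 3.80, 1.08 and 1.94 FPKM in the MI libraries and 0.108, 0.0916 and 2.0 FPKM in the Normal libraries, and Normal Ms1608 lay inside the MI range, with a log2 difference of 1.01 (SE 0.53, adjusted p = 0.354). Ccr3, Ccr4, Ccr6 and Ccr10 were too low to test, with highest values of 1.34 to 7.61 FPKM. Ccr10 and Ccr6 were higher in all MI than in all Normal libraries, Ccr10 at 3.52, 7.61 and 0.204 FPKM in MI with at most 0.0445 FPKM in Normal, and Ccr6 at 0.179, 1.35 and 2.45 FPKM in MI with at most 0.0515 FPKM in Normal. They are named for this after their values were seen. The share of genes under the filter whose groups lie apart in this way was not worked out. Over all tested genes it was 25%, and among the described members it held for 4 of 19 receptors and 1 of 29 ligands.

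The CXC receptors held the receptors with the lowest p. Cxcr6, carried by T cells and innate lymphocytes, measured 329, 26.0 and 15.5 FPKM in the MI libraries and 1.49, 16.9 and 0.607 FPKM in the Normal libraries. MI Ms1535 stood more than 10 times above the next MI library, and Normal Ms1537 lay inside the MI range. Its log2 difference, 3.67 (SE 1.25, 95% interval 0.89 to 6.45, unadjusted p = 0.0148, adjusted p = 0.252 in limma), was the highest of the 31 members. Cxcr2, the neutrophil receptor for Cxcl1, Cxcl2, Cxcl3 and Cxcl5, measured 3.06, 2.30 and 12.8 FPKM in the MI libraries and 0.746, 0.299 and 1.15 FPKM in the Normal libraries. It was the 1 of 11 tested receptors whose MI libraries all lay above all Normal libraries, Normal Ms1608 included, beside 25% of all tested genes. The log2 difference was 1.75 (SE 0.65, 95% interval 0.29 to 3.20, unadjusted p = 0.0232, adjusted p = 0.262 in limma). Cxcl2 and Cxcl3, 969 and 274 FPKM in Normal Ms1608, were thus high in a library with 1.15 FPKM of their receptor. The related receptor Cxcr1 was above 1 FPKM in MI Ms1608 (4.97 FPKM) and Normal Ms1608 (6.98 FPKM) and under 0.05 FPKM in the rest.

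Cxcr4, the receptor of Cxcl12, and Cxcr5, which takes B cells into follicles, were highest in Normal Ms1608. Cxcr4 measured 21.9, 14.5 and 54.8 FPKM in the MI libraries and 4.80, 6.51 and 129 FPKM in the Normal libraries. Cxcr5 measured 6.23, 18.3 and 13.7 FPKM in the MI libraries and 1.46, 1.68 and 51.0 FPKM in the Normal libraries. Both had all MI libraries above Normal Ms1535 and Ms1537, and log2 differences of 0.60 (SE 1.15, adjusted p = 0.814) and 0.86 (SE 1.14, adjusted p = 0.720) with all libraries. Cxcr4 was thus at its highest in the library with the lowest Cxcl12, whereas Cxcr6 and its ligand Cxcl16 were both at their lowest there. Cxcr3, the receptor of Cxcl9 and Cxcl10, was under the filter at 2.26, 4.02 and 0.926 FPKM in the MI libraries and 0.0148, 0.387 and 0.0516 FPKM in the Normal libraries, and its groups did not overlap. It too is named for this after its values were seen, with no share over genes under the filter to set beside it. The fractalkine receptor Cx3cr1 reached 4.01 FPKM in MI Ms1608 and stayed under 1 FPKM elsewhere, and Xcr1, a dendritic cell receptor, reached 2.93 and 3.66 FPKM in MI Ms1535 and MI Ms1537 and stayed under 1 FPKM in the rest.

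The atypical receptors divided by library. Ackr3, which scavenges Cxcl12, measured 17.4, 22.4 and 6.12 FPKM in the MI libraries and 6.19, 5.73 and 0.148 FPKM in the Normal libraries. Apart from MI Ms1608, which was level with the other Normal libraries, MI was higher, and Normal Ms1608 was the lowest by more than 10 times. The log2 difference was 1.93 (SE 0.90, 95% interval -0.07 to 3.93, adjusted p = 0.312), and 1.06 (adjusted p = 0.238) without Normal Ms1608. Ackr4, which scavenges Ccl19, Ccl21 and Ccl25, measured 2.54, 6.17 and 5.36 FPKM in the MI libraries and 2.82, 5.69 and 0.132 FPKM in the Normal libraries, and apart from Normal Ms1608 the groups covered the same range (log2 difference 0.83, SE 0.77, adjusted p = 0.586). Ackr2, a scavenger of inflammatory CC chemokines, measured 3.16, 2.67 and 0.464 FPKM in the MI libraries and 0.786, 0.472 and 3.10 FPKM in the Normal libraries, with Normal Ms1608 level with MI Ms1535 (log2 difference 0.35, SE 0.59, adjusted p = 0.786). Ackr1, known from venular endothelium, was among the members under 1 FPKM in every library, with 0.365 FPKM at most.

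Normal Ms1608 lay at an end of the range for 23 of 31 tested members, a share of 74.2% beside 71.0% of all tested genes. It was the highest of the 6 libraries for 9 of 20 tested ligands and 4 of 11 tested receptors, beside 26.8% of all tested genes. It was the lowest for 7 ligands and 3 receptors, beside 44.1% of all tested genes. Without it, all MI libraries were above both remaining Normal libraries for 8 of 20 ligands (Ccl3, Ccl4, Ccl5, Ccl6, Ccl9, Cxcl2, Cxcl3 and Cxcl16) and for 7 of 11 receptors (Ccr1, Ccr2, Ccr7, Ccr9, Cxcr2, Cxcr4 and Cxcr5), beside 52.6% of all tested genes. The ligand share was thus below that of all genes and the receptor share above it, and neither was tested. Ccl9, Cxcl3, Ccr9 and Cxcr2 had passed the filter of the test with neither remaining Normal library at 1 FPKM. No tested member had all its Normal values above all its MI values. Of the 15 members named here, 13 had Normal Ms1608 above at least 1 MI library, Cxcl16 and Cxcr2 being the exceptions.

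Genes that act with chemokines were followed through 5 further lists, and limma called none of their genes with all 6 libraries. Of 12 tested chemokine-like genes outside the symbol rule, 2 were higher in MI at an unadjusted p under 0.05, a level that 16.1% of all tested genes reached. These were Pf4, a platelet chemokine of the CXC family, at 35.1, 68.2 and 59.2 FPKM in the MI libraries and 15.1, 30.6 and 2.27 FPKM in the Normal libraries (log2 difference 2.16, adjusted p = 0.281), and Cmtm6, of the chemokine-like factor family (log2 difference 1.81, adjusted p = 0.255). Of 13 tested G proteins and second messengers of chemokine receptors, 1 was higher at that level, the adenylate cyclase Adcy7 (1.87, adjusted p = 0.287). Of 14 tested genes of receptor desensitization, 3 were, led by the G protein regulators Rgs14 (1.81, adjusted p = 0.251) and Rgs1 (2.36, adjusted p = 0.252). Of 19 tested migration effectors, 4 were, led by the Rac activators Elmo1 (2.07, adjusted p = 0.245) and Dock2 (2.08, adjusted p = 0.245), the latter also 1 of the pan-leukocyte markers. Of 13 tested genes of chemokine presentation and processing, 6 were, led by the heparan sulphate carriers Sdc4 (2.54, adjusted p = 0.245) and Sdc1 (2.35, adjusted p = 0.245). Without Normal Ms1608, 1, 3, 5, 7 and 3 genes of the 5 lists, in that order, were called higher in MI and none lower, where 4.45% of all tested genes were called higher. The median log2 differences of the lists with all libraries were 1.08, 0.91, 1.16, 0.95 and 1.31, against 0.78 over all genes.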

How the data were processed

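The table holds FPKM values, deposited by the authors, for 6 libraries of sorted cells. Per the submitters' processing notes, reads were handled with STAR 2.4.2a and Cufflinks 2.2.1 on GRCm38. How multi-mapping reads were treated, whether strand was used and which annotation release was taken are not given in the sources used here. Per the labels' protocols, RNA was amplified with T7 polymerase, so fragments are not independent molecules and implied fragment counts carry that limit. The protocols state about 10 "megabyte" reads per sample, and the depths implied by the FPKM steps (91.9% to 94.0% of low values within 0.1 of a whole fragment, where 20% would be by even spread, with the step fitted to the same values) were not reconciled with it.

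Genes were matched by symbol and followed by identifier (1 gene with such a symbol is not reported here), and all 59 members reported were found in GENCODE vM21, which gave positions on GRCm38. Differences were tested with limma 3.58.1 (R 4.3.3, variances shrunk towards a trend over the mean) on log2 values of FPKM plus 1, over the 10168 genes at or above 1 FPKM in 3 or more of the 6 libraries, with Benjamini-Hochberg adjustment over all of them and a threshold of 0.05. An exact permutation test of 3 against 3 libraries cannot give a p under 0.1 and was not used. The code of the fit was checked on simulated data, which says nothing about the calls made here. Alternatives were the pseudocount, the filter, 3 scalings of the libraries, no trend, array weights, a replicate block and leaving out each library. Combinations of leaving out Normal Ms1608 with each scaling were added after seeing the data.

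Every library's value is printed for tested members (the 30 of 31 with the highest mean log2 level) and for members under the filter that reached 10 FPKM, and for Cxcr3, named after its values were seen, while other members are given by ranges. The members, the roles and the marker and pathway lists were chosen with earlier results of these data known. Promoters came from the RefSeq table of GRCm38.p6, in which 45 of 59 members have an entry. The markers Jchain and Irf8 were not analysed here.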

Additional observations from a re-analysis of the deposited data

How the results depend on the processing

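No member was called under any of the 16 alternative settings apart from array weights, which kept all 6 libraries, and leaving out Normal Ms1608. Array weights gave Normal Ms1608 a weight of 0.117 against 0.738 to 2.66 for the others. This setting called 3288 of 10168 genes, 8 of 20 ligands and 7 of 11 receptors. Of all tested genes, 31.6% were called higher in MI with it. Leaving out 1 library at a time gave 1 to 459 of 10168 genes, 0 to 3 of 20 ligands and 0 to 2 of 11 receptors called. The highest of each was without Normal Ms1608. Without Normal Ms1608 and with median-ratio, upper-quartile or quantile scaling, 3, 3 and 2 genes and 0 members were called. With a replicate block, 1 gene and 0 members were called and the lowest adjusted p of a member was 0.198, and the deviations of same-numbered libraries correlated at -0.052, 0.098 and 0.087, so the numbers were not taken to pair the libraries.

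The median receptor difference of 1.01 became 2.23 and 0.35 with a pseudocount of 0.1 and 5, 1.85 with a mean of at least 5 FPKM, 0.50 and 0.39 with median-ratio and quantile scaling and 1.73 with array weights, and leaving out 1 library at a time gave 0.77 to 1.92. The ligand median of 0.96 became 1.34 and 0.54 with a pseudocount of 0.1 and 5, and 1.66 with array weights. With median-ratio, upper-quartile and quantile scaling it was 0.003, 0.39 and 0.46. Leaving out 1 library at a time gave a ligand median of 0.37 (without Normal Ms1535) to 1.23 (without MI Ms1537). The log2 difference kept its sign in all 16 settings for 12 of 31 tested members, and for 3 more (Ccl12, Ccr9 and Cxcr2) in the 15 settings that tested them. It turned sign under median-ratio scaling (-0.68 for Ccl4, -0.19 for Ccl17, -0.25 for Cxcl1, -0.032 for Cxcl3, -0.57 for Ccr7, -0.41 for Cxcr4, -0.055 for Cxcr5 and -0.29 for Ackr2), upper-quartile scaling (-0.33 for Ccl4, -0.22 for Ccr7, -0.061 for Cxcr4 and -0.044 for Ackr2), quantile scaling (-0.16 for Ccl4, -0.075 for Ccl17, -0.50 for Ackr2 and -0.37 for Ackr4), a pseudocount of 0.1 (0.40 for Cxcl9), a pseudocount of 5 (0.024 for Ccl2 and -0.17 for Cxcl3) and array weights (1.59 for Cxcl10, 1.97 for Ccl2, 1.83 for Ccl7 and -0.17 for Ackr4). Leaving out 1 library at a time gave ranges of -0.65 to 2.02 for Ccl4, -1.25 to 1.46 for Ccl17, -0.47 to 0.40 for Ccl25, -1.52 to 0.99 for Cxcl10, -1.11 to 0.56 for Cxcl9, -1.66 to 1.52 for Ccl2, -1.71 to 1.26 for Ccl7, -0.69 to 3.36 for Cxcl3, -0.28 to 2.60 for Cxcl12, -0.51 to 0.16 for Cxcl14, -0.40 to 1.87 for Ccr7 and -0.21 to 2.04 for Cxcr4. The cause of these turns was not tested. With 3 libraries a group and standard errors of 0.47 to 1.96 on the log2 scale, a difference of 1 could not be told from 0 for most members, and a p over the threshold does not show that the groups were alike.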
